A study of Mus musculus with 16 samples.

Results

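The expression of 8 genes was followed in mouse liver: H19, Igf2, Igf2r, Afp, Gpc1, Gpc3, Cdkn1c and Dlk1, which are fetal liver genes, imprinted genes or glypicans. They were picked by symbol from a table of 50559 gene symbols. H19 and Gpc1 were selected on these same libraries, because they were high on a high-fat diet and low with an inhibitor of ketohexokinase (KHK). Their values are therefore given as a description, without a test. Of the 8 genes, 7 had enough counts to be tested, among 18335 tested in all, and Dlk1 did not.

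RNA-Seq libraries were made from the liver of male C57BL/6J mice, 4 in each of 4 groups. Mice were 6 weeks old at the start and ate a low-fat diet (LFD, chow in the sample labels) or a high-fat diet (HFD) for 10 weeks. Treatment took up the final 4 weeks, with an siRNA injection every 2 weeks and repeated daily gavage in every mouse. LFD and HFD mice received control siRNA against luciferase (10 mg/kg) and methylcellulose. HFD + siRNA mice received siRNA against both forms of KHK (20 mg/kg) and methylcellulose, and HFD + Inhib mice received control siRNA and the KHK inhibitor PF-06835919 (15 mg/kg) in methylcellulose. The siRNA was directed to hepatocytes and the inhibitor reached the whole animal, so that the 2 treatments differ in the organs they reach as well as in how they act. The methods describe a saline or insulin injection shortly before tissue collection, and the labels do not tell which mouse received which. Libraries held between 24317111 and 35820234 expected counts, and levels are CPM, which set each count against the library total scaled by TMM.

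An imprinted gene is expressed from the copy of 1 parent. H19, a long noncoding RNA expressed from the maternal copy, and Igf2, a fetal growth factor expressed from the paternal copy, lie side by side and share enhancers. Both are abundant in fetal liver and are shut down after birth, as are Afp, the albumin-like protein of fetal plasma, and Gpc3. Glypicans are proteoglycans tied to the cell surface by a lipid anchor, and their heparan sulfate chains bind growth factors and morphogens. Zhx2 is known as a repressor of Afp, H19 and Gpc3 in adult mouse liver.

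H19 also carries a microRNA, whose hairpin lies within its exon on the minus strand of chromosome 7. The sequences are shown because an H19 transcript is the precursor of both mature arms. They are from RefSeq (GRCm38.p6) and are written 5′ to 3′. Capitals mark the mature arms in the hairpin and the seed (bases 2 to 8) in each arm.
Mir675 hairpin: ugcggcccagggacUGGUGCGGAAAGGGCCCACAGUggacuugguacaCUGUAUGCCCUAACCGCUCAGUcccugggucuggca
mmu-miR-675-5p: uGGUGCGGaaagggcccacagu
mmu-miR-675-3p: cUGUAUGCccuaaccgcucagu
The 2 arms have different seeds. Mir675 has a row of its own in the table, and it held 0 counts in all 16 libraries, which gives no value for the mature microRNAs, since they are too short to be counted as mRNA. Mir483, within Igf2, and Mir149, within Gpc1, were also at 0 in all libraries.

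Khk, the target of both treatments, was measured first. It was 264 ± 39.8 CPM in HFD and 266 ± 59.9 CPM in LFD (SD, n = 4 each). In the HFD + siRNA libraries it was 11.8, 9.14, 18.1 and 11.5 CPM, all below the HFD libraries (log2 fold change -4.38, standard error 0.23, edgeR adjusted p = 1.9e-08). Here and below an edgeR adjusted p is from the quasi-likelihood test and is adjusted by Benjamini-Hochberg over all genes tested. In HFD + Inhib it was 120 ± 24.1 CPM (log2 fold change against HFD -1.14, standard error 0.20, edgeR adjusted p = 7.5e-04), so that the mRNA was lower in the inhibitor group as well. Khk was 3.24 higher on the log2 scale with the inhibitor than with the siRNA (standard error 0.22, edgeR adjusted p = 4.4e-08).

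H19 was close to silent in LFD liver and present in every HFD library. It was 0.126, 0.179, 0.448 and 0.165 CPM in LFD replicates 1 to 4, from 3 to 15 counts. It was 38.8, 3.08, 8.27 and 15.1 CPM in HFD replicates 1 to 4, from 120 to 1170 counts. All 4 HFD libraries were above all 4 LFD libraries, and the HFD libraries themselves spread over a 12.6-fold range. HFD + siRNA libraries held 5.54, 1.49, 2.96 and 0.674 CPM. They lay above the LFD libraries and below or within the range of the HFD libraries, which they overlapped. HFD + Inhib libraries held 0.212, 0.311, 0.648 and 0.720 CPM, all below the HFD libraries and overlapping the LFD libraries.

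The fitted log2 fold change of H19 was 6.07 for HFD against LFD (standard error 0.85). It was -5.06 for HFD + Inhib against HFD (standard error 0.78) and -2.61 for HFD + siRNA against HFD (standard error 0.65). The order of the group means was HFD (16.3 ± 15.8 CPM), HFD + siRNA (2.67 ± 2.13 CPM), HFD + Inhib (0.473 ± 0.249 CPM) and LFD (0.229 ± 0.147 CPM; SD, n = 4 each). Neighbours in this order overlapped in each case. HFD replicate 1 set much of the HFD mean. Without it the mean was 8.83 ± 6.04 CPM (n = 3) and the log2 fold changes were 5.18 against LFD, -4.18 for HFD + Inhib and -1.72 for HFD + siRNA. In bulk liver, fewer cells expressing a gene and less RNA per cell cannot be told apart.

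**Figure D1:**
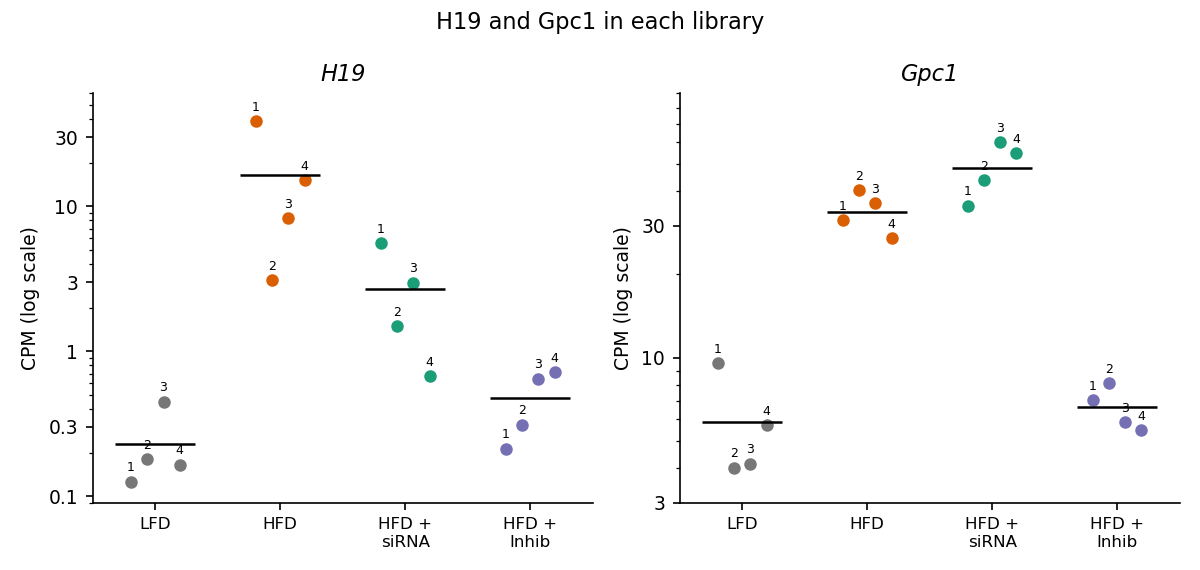
CPM of H19 and Gpc1 on log axes in each library (points, numbered by replicate) with the group mean (line), for 4 groups of 4 libraries. H19 spreads from 3.08 to 38.8 CPM within HFD, while Gpc1 spreads only from 27.1 to 40.2 CPM there, and both are low in LFD and HFD + Inhib.

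Gpc1, glypican 1, was also high in HFD and low with the inhibitor, but it stayed high with the siRNA. It was 9.56, 4.01, 4.15 and 5.70 CPM in the LFD libraries and 31.4, 40.2, 36.1 and 27.1 CPM in the HFD libraries. HFD + siRNA libraries held 35.4, 43.7, 60.2 and 54.7 CPM, and HFD + Inhib libraries held 7.03, 8.12, 5.86 and 5.49 CPM. The HFD and HFD + siRNA libraries overlapped each other, and all 8 were above all 8 libraries of the LFD and HFD + Inhib groups, which also overlapped each other.

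The log2 fold change of Gpc1 was 2.54 for HFD against LFD (standard error 0.25) and -2.35 for HFD + Inhib against HFD (standard error 0.24). It was 0.52 for HFD + siRNA against HFD (standard error 0.23) and -2.88 for HFD + Inhib against HFD + siRNA (standard error 0.25). Between the same 2 treatments the log2 fold change of H19 was -2.45 (standard error 0.78), and there its groups overlapped. HFD + siRNA replicate 1, the highest of its group, weighed on both siRNA comparisons of H19, and without it the values were -1.79 between the treatments and -3.28 for HFD + siRNA against HFD. On the opposite strand the end of Ankmy1 overlaps Gpc1, with 18% of the sequence words of Gpc1 shared. Whether the counting used strand is not stated, so reads of the 2 genes may not be told apart there. Ankmy1 held 6 to 31 counts in a library against 112 to 1866 for Gpc1. Its differences had the directions of those of Gpc1. They were 1.73 for HFD + siRNA against LFD (edgeR adjusted p = 0.0022) and -1.27 for HFD + Inhib against HFD + siRNA (edgeR adjusted p = 0.0032). Not past the threshold were 0.93 for HFD against LFD (edgeR adjusted p = 0.0512) and -0.46 for HFD + Inhib against HFD (edgeR adjusted p = 0.325). The same held for 0.80 for HFD + siRNA against HFD (edgeR adjusted p = 0.0728). The sharing of reads was not tested.

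Gpc3, the glypican of fetal liver and of liver tumours, was low in all groups. It was 0.126, 0.502, 1.25 and 1.09 CPM in LFD and 0.828, 0.642, 0.759 and 1.10 CPM in HFD. HFD + siRNA libraries ranged from 0.583 to 0.977 CPM and HFD + Inhib libraries from 0.459 to 1.05 CPM. All 4 groups overlapped. The log2 fold change for HFD against LFD was 0.12, with a 95% interval of -0.81 to 1.04 and an edgeR adjusted p of 0.883. At 3 to 42 counts a library, a change within that interval was thus not excluded. Its sign depended on which library was left out, with -0.20 without LFD replicate 1, -0.03 without LFD replicate 2 and -0.04 without HFD replicate 4.

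Igf2 was near the limit of detection, at 10 to 58 counts a library. It was 0.419, 0.466, 0.478 and 0.692 CPM in LFD and 1.92, 0.565, 0.721 and 1.13 CPM in HFD. HFD + siRNA libraries held 1.04, 0.583, 0.663 and 0.352 CPM, and HFD + Inhib libraries held 0.601, 0.777, 0.356 and 0.360 CPM. HFD replicates 1 and 4 were the highest of the 16 libraries, and the groups overlapped in every comparison with HFD. The log2 fold change was 1.06 for HFD against LFD (standard error 0.41, edgeR adjusted p = 0.0805) and -1.06 for HFD + Inhib against HFD (standard error 0.41, edgeR adjusted p = 0.082). For HFD + siRNA against HFD it was -0.71 (edgeR adjusted p = 0.266). Single HFD libraries moved these values in both directions. Without replicate 2, the lowest of its group, the first 2 were 1.29 (edgeR adjusted p = 0.0402) and -1.29 (edgeR adjusted p = 0.0426). Without replicate 1, the highest, the 3 values were 0.62 (edgeR adjusted p = 0.295), -0.62 (edgeR adjusted p = 0.339) and -0.27 (edgeR adjusted p = 0.704). Another annotated gene on the same strand shares 61.2% of the sequence words of Igf2 and is not analysed here, so that the counts of Igf2 are uncertain to that extent.

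**Figure D2:**
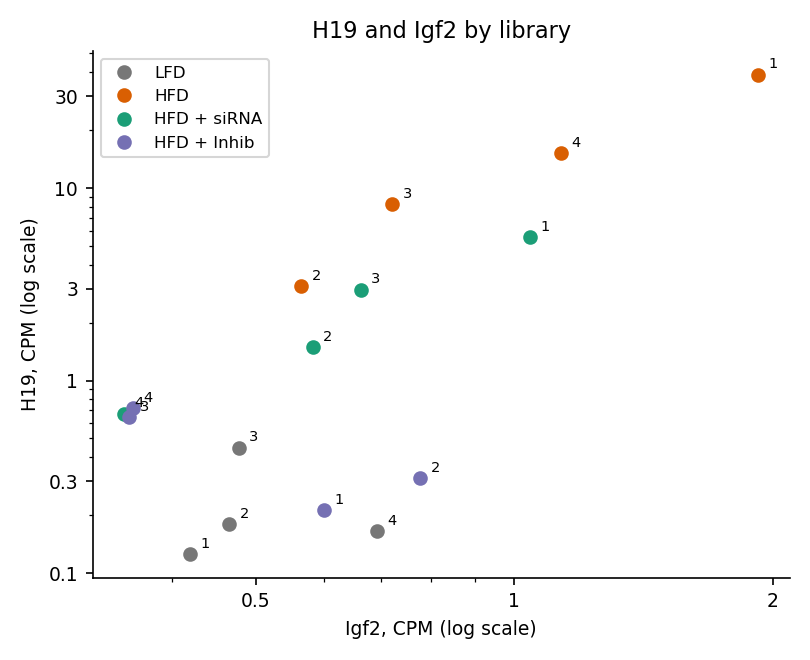
CPM of H19 against CPM of Igf2 in each library, both on log axes, with points coloured by group and numbered by replicate. In HFD (1, 4, 3, 2) and in HFD + siRNA (1, 3, 2, 4) the libraries stand in the same order from high to low by both genes.

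Within groups the libraries were also ordered by H19 and by Igf2, after the values were seen and with 4 libraries a group, as a description without a test. In HFD both genes gave replicate 1 first, then 4, 3 and 2, and in HFD + siRNA both gave 1, 3, 2 and 4. In LFD and HFD + Inhib, where both genes held few counts, the orders differed, so that 2 of 4 groups had the same order.

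**Figure D3:**
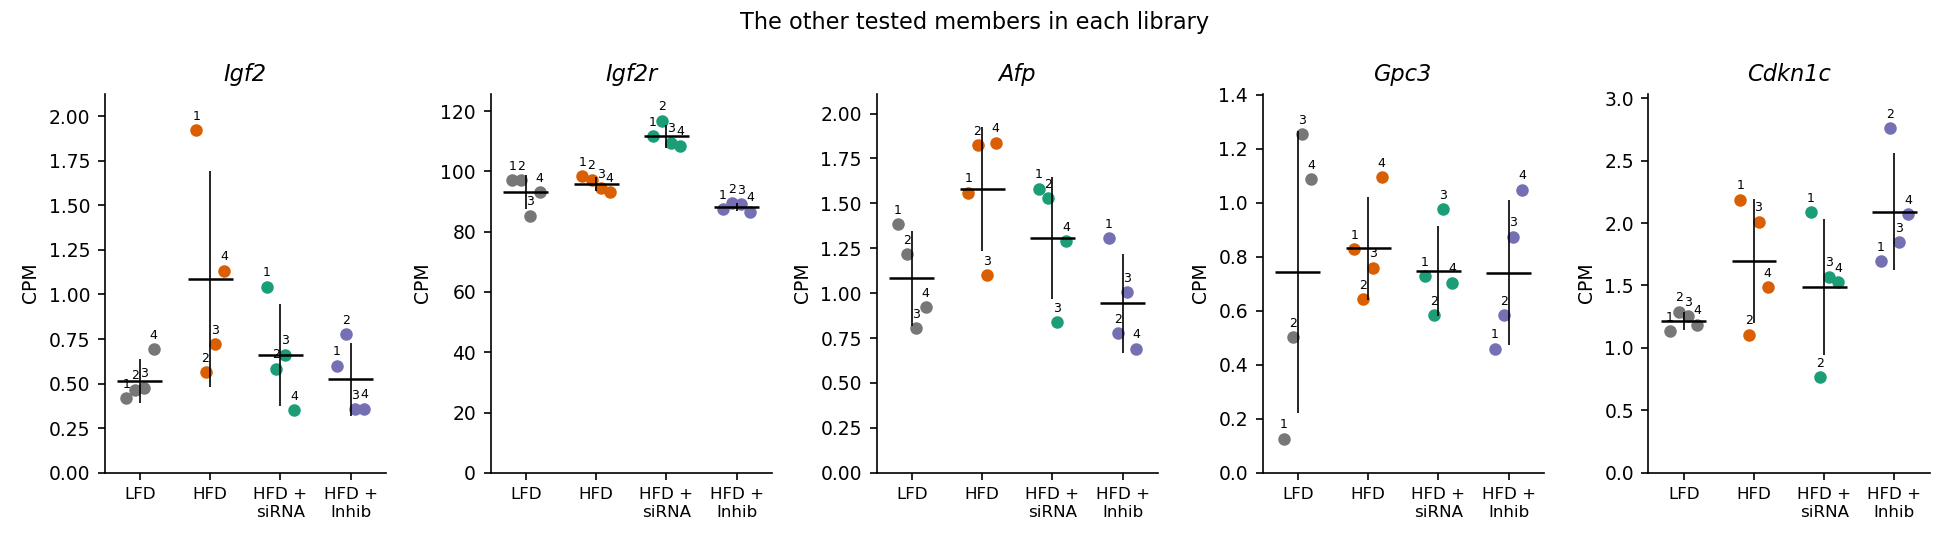
CPM of Igf2, Igf2r, Afp, Gpc3 and Cdkn1c in each library (points, numbered by replicate), with the group mean (horizontal line) and SD (vertical line), n = 4. Igf2r is close together within groups and highest in HFD + siRNA at 108 to 117 CPM, while the other genes stay at or under 2.76 CPM with groups that largely overlap.

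Igf2r encodes the mannose 6-phosphate receptor that takes IGF2 to the lysosome, and it was the most evenly expressed of the genes. It was 97.1, 97.0, 85.4 and 93.1 CPM in LFD and 98.4, 97.3, 94.5 and 93.1 CPM in HFD. HFD + siRNA libraries held 112, 117, 109 and 108 CPM, all above every library of the other groups. HFD + Inhib libraries held 87.5, 89.4, 89.1 and 86.6 CPM, all below the HFD libraries. In HFD + siRNA, Igf2r was higher than in HFD by 0.22 on the log2 scale (standard error 0.06, edgeR adjusted p = 0.0325) and than in LFD by 0.26 (standard error 0.06, edgeR adjusted p = 0.0171). With the inhibitor it was lower than with the siRNA (log2 fold change -0.34, standard error 0.06, edgeR adjusted p = 6.7e-04). Against HFD the inhibitor group had a log2 fold change of -0.12 (95% interval -0.25 to 0.01, edgeR adjusted p = 0.207).

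The difference between the treatments in Igf2r stayed past the threshold in all 16 alternatives computed. The difference of HFD + siRNA from HFD was lost in 11 of 16, with edgeR adjusted p between 0.0541 and 0.0977 when any of HFD replicates 1, 3 and 4 or any HFD + siRNA replicate was left out, and 0.155 without a filter on low counts. It was also lost after GC and length correction (0.17, edgeR adjusted p = 0.0783, or 0.0789 with the replicate block). With only the 2 groups compared the edgeR adjusted p was 0.0581. The difference of HFD + siRNA from LFD was lost in 5 of 16, without LFD replicate 3 or HFD + siRNA replicate 1 or 2 (edgeR adjusted p from 0.0501 to 0.066), without a filter on low counts (0.0768) and with only the 2 groups compared (0.0974). Airn, the noncoding RNA that runs against Igf2r and silences its paternal copy, held 16 to 56 counts a library. The bodies of the 2 genes overlap, and their annotated exons share 0 bases. Airn was 0.719 ± 0.120 CPM in LFD and 1.15 ± 0.260 CPM in HFD, with overlap (log2 fold change 0.68, edgeR adjusted p = 0.0606). Against LFD its groups did not overlap with the siRNA (0.72, edgeR adjusted p = 0.0791) or with the inhibitor, where it rose (0.88, edgeR adjusted p = 0.0095).

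Cdkn1c, the imprinted inhibitor of cyclin-dependent kinases p57, was low in all groups. It was 1.13, 1.29, 1.25 and 1.19 CPM in LFD and 1.70, 2.76, 1.84 and 2.07 CPM in HFD + Inhib, with no overlap. The log2 fold change was 0.78 (standard error 0.27, edgeR adjusted p = 0.0347). This call was lost without any one of the LFD libraries and without replicate 2 or 4 of HFD + Inhib (edgeR adjusted p from 0.0501 to 0.102). HFD libraries held 2.19, 1.10, 2.01 and 1.49 CPM and HFD + siRNA libraries 2.09, 0.765, 1.57 and 1.52 CPM, so that both overlapped LFD. HFD against LFD gave a log2 fold change of 0.47 (95% interval -0.11 to 1.05, edgeR adjusted p = 0.248). An annotated gene on the opposite strand shares 24.9% of the sequence words of Cdkn1c and is not analysed here. Dlk1, the paternally expressed fetal ligand that resembles Notch ligands, held 0 to 2 counts in each library, at or under a floor of 3 counts, and no fold is given.

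Afp was 1.38, 1.22, 0.806 and 0.923 CPM in LFD and 1.56, 1.82, 1.10 and 1.84 CPM in HFD. It was 1.58, 1.53, 0.837 and 1.29 CPM in HFD + siRNA and 1.31, 0.777, 1.004 and 0.690 CPM in HFD + Inhib. HFD replicates 1, 2 and 4 were above every LFD and HFD + Inhib library, and replicate 3 lay among them. The log2 fold change was 0.56 for HFD against LFD (standard error 0.26, edgeR adjusted p = 0.154) and -0.75 for HFD + Inhib against HFD (standard error 0.27, edgeR adjusted p = 0.063). The second crossed the threshold in 7 of 16 alternatives, among them DESeq2 (adjusted p = 0.0495), without HFD replicate 3 (edgeR adjusted p = 0.0379) and without HFD + Inhib replicate 1 (edgeR adjusted p = 0.0342).

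Set against transcript length, the levels in HFD were 10.8 CPM per kb for Igf2r, 8.07 for Gpc1 and 7.14 for H19. Cdkn1c (0.893 CPM per kb), Afp (0.766), Gpc3 (0.375) and Igf2 (0.230) were much lower. In LFD the same scale gave 10.5 CPM per kb for Igf2r, 1.40 for Gpc1 and 0.1004 for H19. Lengths were those of the longest annotated transcript. If the assay counted probes, as the methods say, genes cannot be compared by level per kb. The fetal RNAs other than H19 also had low CPM in all 4 groups.

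Of the 5 tested genes that were not selected on these libraries (Igf2, Igf2r, Afp, Gpc3 and Cdkn1c), edgeR called 0 for HFD against LFD, where 9.58% of all genes tested were higher and 8.80% lower. Igf2 had an unadjusted p under 0.05, and DESeq2 called 0. For HFD + siRNA against HFD it called 1 higher, Igf2r, where 5.20% of all genes were higher and 6.55% lower. For HFD + Inhib against HFD it called 0, where 9.80% of all genes were higher and 8.42% lower. There Igf2 and Afp had an unadjusted p under 0.05, and DESeq2 called 1, Afp. Between the treatments it called 1, Igf2r, lower with the inhibitor, where 17.3% of all genes were higher and 16.6% lower. Against LFD it called Igf2r with the siRNA, where 8.63% of all genes were called in either direction, and Cdkn1c, higher, with the inhibitor, where 36.9% were (18.8% higher and 18.2% lower). These comparisons share control libraries.

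Other imprinted genes did not move together. Of 51 listed, 38 were tested, and in HFD against LFD 5 rose and 6 fell (9.58% and 8.80% of all genes), with a median log2 fold change of -0.08 against -0.01 for all genes. The number that rose was 2 without HFD replicate 3 and 3 without HFD replicate 1 or LFD replicate 1. Slc22a3, an organic cation transporter beside Igf2r, rose by 1.04 (edgeR adjusted p = 0.0017). Sgce, a sarcoglycan, had -1.19 (edgeR adjusted p = 0.0016) and H13, a signal peptide peptidase, had -0.59 (edgeR adjusted p = 0.0013). Meg3, the noncoding RNA of the Dlk1 locus, was 2.07 CPM in LFD and 1.14 CPM in HFD, with overlapping groups (edgeR adjusted p = 0.316).

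Among imprinted genes, Peg3 stood out between the treatments. Peg3, a paternally expressed zinc finger gene, was 14.3 ± 0.790 CPM in HFD, 7.43 ± 1.67 CPM in HFD + siRNA and 43.4 ± 10.6 CPM in HFD + Inhib (SD, n = 4 each), with no overlap among these groups. Against HFD its log2 fold change was -0.95 with the siRNA (edgeR adjusted p = 0.0081) and 1.60 with the inhibitor (edgeR adjusted p = 4.0e-05), and it was 2.55 between the treatments (edgeR adjusted p = 3.8e-07). Of the 38 genes, 2 rose and 4 fell with the siRNA, where 5.20% of all genes rose and 6.55% fell. With the inhibitor 3 rose and 1 fell, where 9.80% of all genes rose and 8.42% fell. With the siRNA, 0 rose without HFD replicate 3 or 4 or HFD + siRNA replicate 1, 3 or 4, and 2 fell without replicate 3 of either group. Gnas, the stimulatory G protein subunit, rose with the inhibitor (0.56, edgeR adjusted p = 7.7e-05) and Inpp5f, a phosphoinositide phosphatase, fell (-0.49, edgeR adjusted p = 0.0017). With the siRNA, Ube3a, a ubiquitin ligase, fell (-0.64, edgeR adjusted p = 0.0048). Correcting for GC content and length took it to -0.17 (edgeR adjusted p = 0.0509). Between the treatments 6 were higher and 5 lower with the inhibitor (17.3% and 16.6% of all genes), among them Ube3a (0.94, edgeR adjusted p = 4.8e-05) and Impact, an inhibitor of the kinase GCN2 (0.68, edgeR adjusted p = 2.9e-05). After the same correction each of these 2 genes had 0.38, and both were still called.

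**Figure D4:**
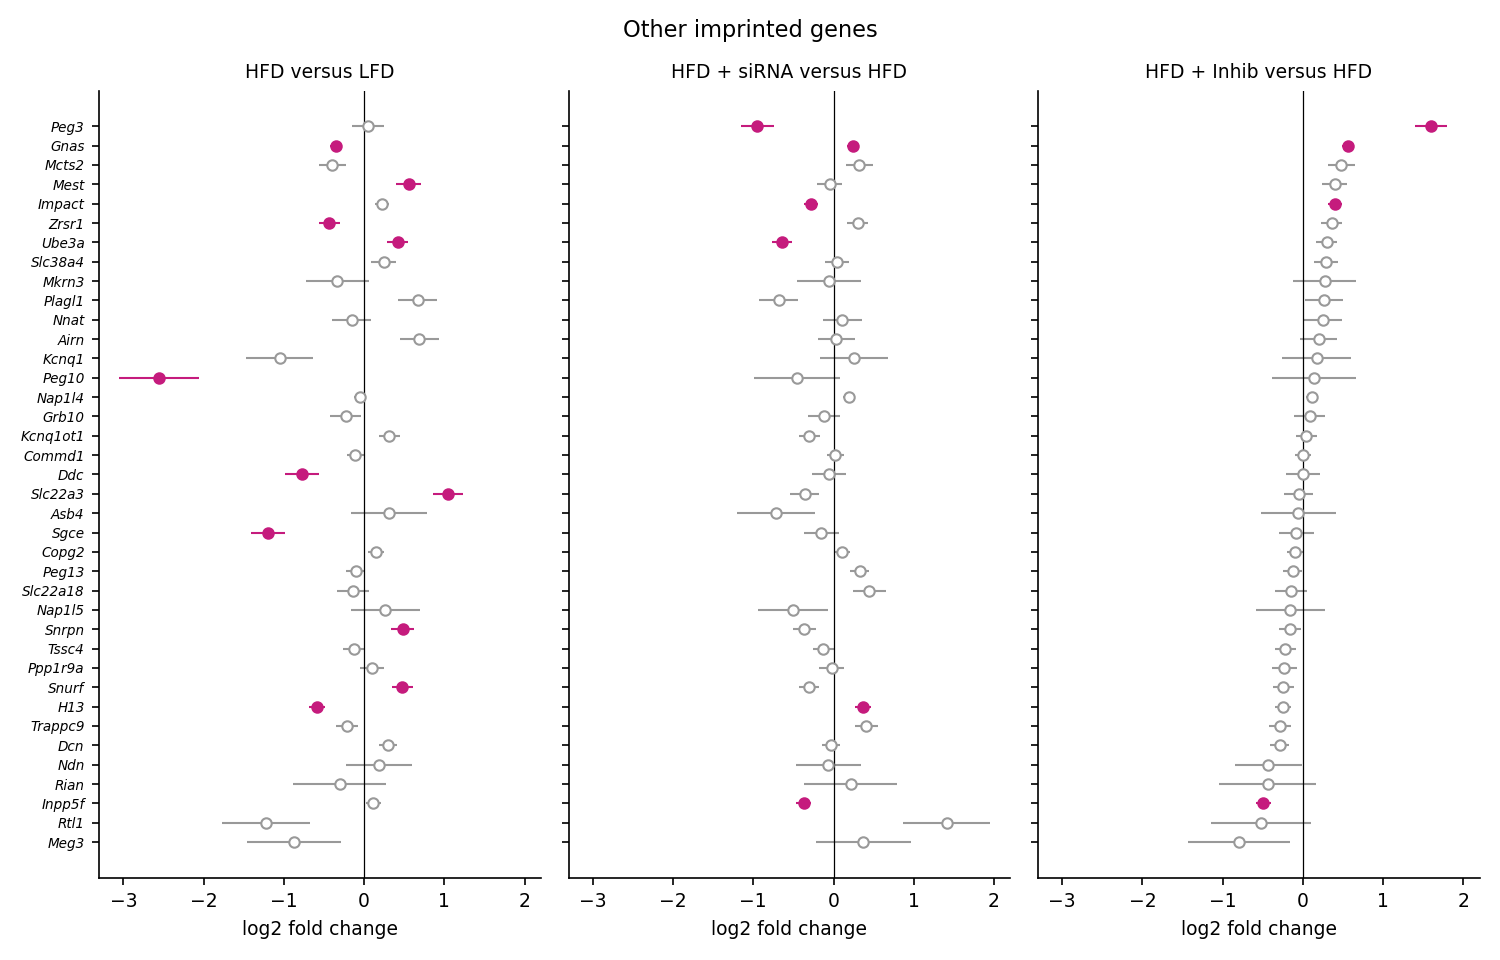
Log2 fold change with its standard error for 38 other imprinted genes in 3 comparisons, ordered by HFD + Inhib against HFD. Filled points have an edgeR adjusted p under 0.05. They fall on both sides of 0 in each comparison, 5 and 6 for HFD against LFD, 2 and 4 with the siRNA, and 3 and 1 with the inhibitor.

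Regulators of the 8 genes were read next: repressors of fetal liver genes, hepatocyte transcription factors and factors that set or keep DNA methylation. Of 28, all tested, 1 rose and 3 fell in HFD against LFD, where 9.58% of all genes rose and 8.80% fell. With the siRNA 0 were called (5.20% and 6.55% of all genes), and with the inhibitor 1 rose and 5 fell (9.80% and 8.42% of all genes). In the siRNA comparison 6 had an unadjusted p under 0.05 in edgeR, and DESeq2 called 3, Zhx2, Zhx1 and Trim28. The count that fell with the inhibitor was 3 without HFD replicate 2 or HFD + Inhib replicate 4, and that in HFD against LFD was 5 without HFD replicate 2. Zhx2 was 34.7 ± 1.03 CPM in LFD and 26.3 ± 0.960 CPM in HFD (SD, n = 4 each), without overlap (log2 fold change -0.40, standard error 0.07, edgeR adjusted p = 0.0020). It was 30.5 ± 1.66 CPM in HFD + siRNA and 24.4 ± 2.03 CPM in HFD + Inhib. With the inhibitor it was lower than with the siRNA (-0.33, edgeR adjusted p = 0.0030), a call lost once GC content and length were corrected for (-0.16, edgeR adjusted p = 0.145). Against HFD the log2 fold change of Zhx2 was 0.22 with the siRNA (edgeR adjusted p = 0.0681) and -0.11 with the inhibitor (edgeR adjusted p = 0.338). The part of Zhx2 in the levels of H19 was not tested. Zbtb20, another repressor of Afp, was 517 CPM in LFD and 471 CPM in HFD with overlap (edgeR adjusted p = 0.356).

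Zhx3, of the same family as Zhx2, and Trim28, the corepressor that keeps methylation at imprinted regions, also fell in HFD against LFD (-0.41, edgeR adjusted p = 0.0047, and -0.55, edgeR adjusted p = 0.0061). The value of Trim28 was -0.31, still called, after GC and length correction. With the inhibitor, Tet3, which oxidises methylcytosine, fell by 0.46 on the log2 scale (edgeR adjusted p = 0.0038), and Dnmt3a, a DNA methyltransferase, fell by 0.50 (edgeR adjusted p = 0.0076). Uhrf1, which brings the maintenance methyltransferase to replicating DNA, fell by 1.07 (edgeR adjusted p = 0.0162), a call lost without HFD replicate 2 (edgeR adjusted p = 0.0695). Between the treatments 2 were higher and 11 lower with the inhibitor, where 17.3% of all genes were higher and 16.6% lower, among them Foxa3 (-1.15, edgeR adjusted p = 0.0010) and Hnf4a (-0.40, edgeR adjusted p = 0.0027), both transcription factors of hepatocytes. Hnf4a was no longer called after GC and length correction (-0.21, edgeR adjusted p = 0.0946). Of 8 hepatocyte markers, which also include Hnf4a, 6 were lower with the inhibitor than with the siRNA and 0 higher. After that correction 5 were lower. The part of hepatocytes in these calls was not tested.

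Of 24 other genes of fetal liver and liver progenitors, 17 were tested, and the 7 under the filter included Lin28b, Hmga2 and Igf2bp1. The shares of all genes that rose and fell were 9.58% and 8.80% in HFD against LFD, 5.20% and 6.55% with the siRNA, and 9.80% and 8.42% with the inhibitor. In HFD against LFD 0 of the 17 rose (2 without LFD replicate 1) and 1 fell, Aldoa, the aldolase of fetal liver and muscle (-0.46, edgeR adjusted p = 0.0217). That call was lost without LFD replicate 1 or 3 or HFD replicate 3 or 4 (edgeR adjusted p from 0.0611 to 0.0855), with only the 2 groups compared (0.0556) and after GC and length correction (-0.27, edgeR adjusted p = 0.066). With the siRNA 0 rose and 1 fell, Igf2bp2, an RNA-binding protein of the IGF2 mRNA, at -1.73 (edgeR adjusted p = 0.0238), lost without HFD replicate 2 or 4 or HFD + siRNA replicate 1 or 4 (edgeR adjusted p from 0.0527 to 0.0626). With the inhibitor 1 rose and 2 fell. Lpl, lipoprotein lipase, was 20.9 CPM in HFD and 189 CPM in HFD + Inhib (log2 fold change 3.17, edgeR adjusted p = 3.4e-06). Ahsg (fetuin A) and Trf (transferrin), which adult hepatocytes also secrete in quantity, fell (-1.05, edgeR adjusted p = 3.2e-05, and -0.84, edgeR adjusted p = 0.0014). Between the treatments 5 were higher and 3 lower with the inhibitor, where 17.3% of all genes were higher and 16.6% lower. Over the alternatives 3 to 5 were higher and 2 to 4 lower. Against LFD, 4 were higher and 4 lower with the inhibitor, where 18.8% of all genes were higher and 18.2% lower. Over the alternatives 3 to 5 were higher there and 2 to 5 lower.

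Of 18 other genes of the IGF axis, 16 were tested. In HFD against LFD 1 rose and 3 fell, beside 9.58% and 8.80% of all genes. With the siRNA edgeR called 0 (2 at an unadjusted p under 0.05, and 1, Igf1, by DESeq2), beside 5.20% and 6.55% of all genes. With the inhibitor 2 rose and 3 fell (9.80% and 8.42% of all genes), or 5 fell after GC and length correction. Without HFD replicate 2 or HFD + Inhib replicate 3 or 4, 0 fell with the inhibitor, and without HFD replicate 1, 1 fell. Igfbp2, a binding protein of IGF1 and IGF2, was 338 ± 105 CPM in LFD, 89.8 ± 36.8 CPM in HFD, 112 ± 31.9 CPM in HFD + siRNA and 317 ± 56.7 CPM in HFD + Inhib. It fell in HFD against LFD (-1.91, edgeR adjusted p = 6.3e-04) and rose with the inhibitor (1.82, edgeR adjusted p = 3.8e-04) and so was high in the 2 groups where Gpc1 was low. Igf1, the growth factor of postnatal liver, rose in HFD (0.58, edgeR adjusted p = 0.0045), a call lost once GC content and length were corrected for (0.18, edgeR adjusted p = 0.331). Irs2, an insulin receptor substrate, fell there (-1.07, edgeR adjusted p = 0.0058). M6pr, the second mannose 6-phosphate receptor beside Igf2r, rose with the inhibitor (0.30, edgeR adjusted p = 0.0111), also lost after that correction (0.18, edgeR adjusted p = 0.0631).

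Other proteoglycans were mostly lower with the inhibitor. The list held 15 genes: the other glypicans, the syndecans, secreted proteoglycans, and Notum, a secreted lipase that inactivates Wnt and was first described as releasing glypicans. Of 13 tested, 0 rose and 8 fell with the inhibitor against HFD, where 8.42% of all genes fell, with a median log2 fold change of -0.42 against -0.004 for all genes. The count was between 6 and 9 over all alternatives. The 8 were Prg4, Notum, Agrn, Sdc4, Gpc4, Sdc2, Col18a1 and Sdc3. Prg4, like Gpc1, was already known from these libraries to be low with the inhibitor, so its call adds no support. Between the treatments 0 were higher and 9 lower with the inhibitor, where 17.3% of all genes were higher and 16.6% lower. With the siRNA against HFD edgeR called 0 (5 at an unadjusted p under 0.05, and 0 by DESeq2), where 5.20% of all genes rose and 6.55% fell. In HFD against LFD 1 rose, Prg4, and 1 fell, Hspg2 (9.58% and 8.80% of all genes).

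Prg4, a secreted lubricating proteoglycan, was higher in every HFD and HFD + siRNA library than in any LFD or HFD + Inhib library, as Gpc1 was. The study of these libraries names Prg4 beside Gpc1 as restored by the inhibitor and not by the siRNA. The pattern of Prg4 was thus known beforehand, and its values are a description without a p. It was 24.4 ± 2.52 CPM in LFD, 47.6 ± 5.34 CPM in HFD, 41.7 ± 2.32 CPM in HFD + siRNA and 22.8 ± 3.39 CPM in HFD + Inhib. Prg4 had a log2 fold change of 0.97 for HFD against LFD and -1.06 with the inhibitor. Notum, Sdc4 (a transmembrane syndecan) and Agrn (agrin, of basement membranes) fell with the inhibitor without a change in HFD past the threshold. Notum was 20.9 CPM in LFD, 18.2 CPM in HFD and 7.52 CPM in HFD + Inhib (-1.28 against HFD, edgeR adjusted p = 3.4e-05). Agrn had -0.72 (edgeR adjusted p = 1.1e-04). Sdc4 was 389 CPM in HFD and 208 CPM in HFD + Inhib (-0.91, edgeR adjusted p = 2.4e-04). Hspg2, perlecan, fell in HFD against LFD (-0.52, edgeR adjusted p = 0.0197), a call lost without LFD replicate 1 or 3 or HFD replicate 3 or 4 (edgeR adjusted p from 0.0554 to 0.0715) and after GC and length correction (-0.21, edgeR adjusted p = 0.0821).

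**Figure D5:**
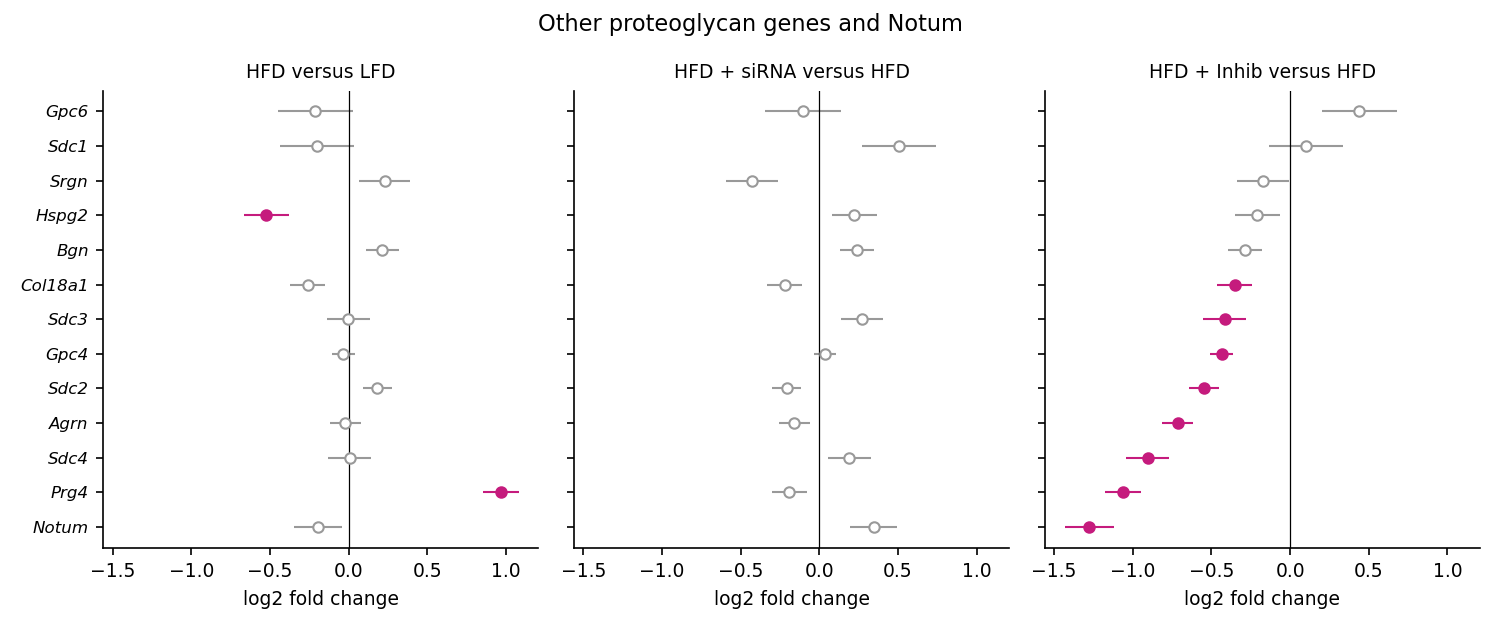
Log2 fold change with its standard error for the 13 other proteoglycan genes tested (with Notum) in 3 comparisons, ordered by HFD + Inhib against HFD. Filled points have an edgeR adjusted p under 0.05, namely 2 for HFD against LFD, 0 with the siRNA and 8 with the inhibitor, all 8 below 0.

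Enzymes that build, modify or cut heparan sulfate, the sugar chain of glypicans, had calls in both directions. Of 30 listed, 23 were tested. In HFD against LFD 4 rose and 4 fell, where 9.58% of all genes rose and 8.80% fell, among them the sulfotransferases Hs2st1 (0.34, edgeR adjusted p = 0.0035) and Hs6st1 (0.38, edgeR adjusted p = 0.0108), which rose, and Ext2, a chain polymerase (-0.40, edgeR adjusted p = 0.0122). The number that fell was 1 without LFD replicate 1 or HFD replicate 3 and 2 without LFD replicate 3 or HFD replicate 4. With the siRNA 0 rose and 3 fell (5.20% and 6.55% of all genes), again Hs2st1 (-0.33, edgeR adjusted p = 0.0060) and Hs6st1 (-0.43, edgeR adjusted p = 0.0086), and Glce, the epimerase (-0.39, edgeR adjusted p = 0.0282). The call of Glce was lost without HFD replicate 2, 3 or 4 or HFD + siRNA replicate 3 or 4 (edgeR adjusted p from 0.0512 to 0.0937) and after GC and length correction (-0.25, edgeR adjusted p = 0.14). That correction also took Hs2st1 with the siRNA to -0.23 (edgeR adjusted p = 0.0511). With the inhibitor 2 rose and 8 fell, where 9.80% of all genes rose and 8.42% fell. Hs6st1 (-0.76, edgeR adjusted p = 3.4e-05) and Extl1, a chain glycosyltransferase (-2.27, edgeR adjusted p = 5.0e-04), fell, and Sulf2, which removes sulfate from finished chains, rose (1.06, edgeR adjusted p = 0.0022). Between the treatments, where 17.3% of all genes were higher with the inhibitor and 16.6% lower, 3 were higher, among them Ugdh, which makes UDP-glucuronate (0.73, edgeR adjusted p = 4.7e-04, and 0.46 after GC and length correction), and 6 lower, among them Hpse, heparanase (-0.74, edgeR adjusted p = 3.4e-04).

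Genes most like H19 and Gpc1 were ranked by Pearson's r of log2 CPM over the 16 libraries, among tested genes whose average log2 CPM was 1 or more, as a description without a p. The libraries of a group share their treatment, so that r mostly follows the group means. Among those nearest to H19 were Camk2n1 (r = 0.892), an inhibitor of CaM kinase II, Kctd18 (0.891), Tcn2 (0.865), the plasma carrier of vitamin B12, and Serpinb8 (0.861). Nearest to Gpc1 were Slc13a3 (r = 0.955), a dicarboxylate transporter, 1810058I24Rik (0.946), Tspan31 (0.932), Natd1 (0.929) and Acy3 (0.929), an aminoacylase. Slc13a3 was 10.3 ± 1.31 CPM in LFD, 34.2 ± 6.91 CPM in HFD, 44.1 ± 14.0 CPM in HFD + siRNA and 8.36 ± 2.09 CPM in HFD + Inhib. With ranks (Spearman), Slc13a3 was at place 13.5 for Gpc1, 1810058I24Rik at place 87.5 and Tspan31 at place 1. For H19, Kctd18 was at place 4, Camk2n1 at 8.5, Tcn2 at 11 and Serpinb8 at 31.

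Markers of other cell types were read beside these results. Of all genes, 9.58% rose and 8.80% fell in HFD against LFD, and 9.80% rose and 8.42% fell with the inhibitor. Hepatocyte markers, led by Alb, were abundant in all libraries, as the label of liver requires. Their summed level was 66330 ± 6535 CPM in HFD and 41180 ± 1619 CPM in HFD + Inhib, and 3 of 8 fell with the inhibitor against HFD (5 of 8 after GC and length correction). All 6 markers of dividing cells rose in HFD against LFD (median log2 fold change 1.80), and 4 of 6 fell with the inhibitor (median -1.01), or 2 of 6 without HFD replicate 2 or 3. Their sum, led by Mki67, was 6.28 ± 1.54 CPM in LFD, 21.2 ± 7.97 CPM in HFD, 15.3 ± 3.58 CPM in HFD + siRNA and 9.56 ± 1.60 CPM in HFD + Inhib. The group means of this sum stood in the same order as those of H19. Within HFD the sum was 15.1, 26.4, 29.6 and 13.8 CPM in replicates 1 to 4. There replicates 1 and 4, with most H19, had the lowest sums. Both orders were read after the values were seen. Stellate cell markers, led by Reln, summed to 321 ± 31.4 CPM in LFD, 389 ± 39.0 CPM in HFD, 416 ± 33.8 CPM in HFD + siRNA and 292 ± 15.5 CPM in HFD + Inhib, with 1 of 8 higher in HFD against LFD (0 without HFD replicate 1 and 2 without LFD replicate 2) and 2 of 8 lower with the inhibitor (1 without HFD replicate 1 or HFD + Inhib replicate 4). The part of dividing and stellate cells in the levels of H19, Gpc1 and the proteoglycans was not tested.

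Skeletal muscle markers, of a tissue with much H19, summed to at most 0.508 CPM in any library, led by Mylpf, with Myog at 0 throughout. Pancreas markers summed to at most 0.527 CPM, led by Cela2a, with Ins2, the neighbour of Igf2, at 0 throughout. For the counts that follow, the shares of all genes that rose and fell were 9.58% and 8.80% in HFD against LFD. They were 5.20% and 6.55% with the siRNA, and 9.80% and 8.42% with the inhibitor. Lymphocyte markers, led by Cd79a, summed to 4.25 ± 1.39 CPM in HFD and 1.76 ± 0.362 CPM in HFD + Inhib, where 4 of 6 fell. Macrophage markers, led by Clec4f, had 1 of 6 lower with the inhibitor. Endothelial markers, led by Stab2, had 1 of 6 higher there. Cholangiocyte markers, led by Spp1, had 1 of 6 higher in HFD against LFD. After GC and length correction the single endothelial and cholangiocyte calls were lost. Red cell (Hbb-bs), mesothelium (Upk3b) and skeletal muscle markers had 0 called by edgeR or DESeq2 in these 3 comparisons, and 1, a red cell marker with the inhibitor, had an unadjusted p under 0.05. Among adipocyte markers Cfd alone was tested, and their sum was 2.84 ± 3.29 CPM in HFD and 34.6 ± 16.3 CPM in HFD + Inhib. In HFD + Inhib nearly all of that sum was Cfd, with 52.33 of 52.36 CPM in replicate 1 and 16.9 of 16.9 CPM in replicate 2. The higher sum there is thus that of 1 gene. The part of any of these cell types in the results was not tested.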

How the data were processed

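Expected counts per gene symbol, as RSEM estimates them, were deposited by the authors without scaling between libraries, and 15.1% of the values are not whole numbers. The submitters' processing notes name STAR, RSEM and mm39, while the methods name HTG EdgeSeq mRNA sequencing, which counts probes. Which assay made the table is open, strand use is not stated, and no coordinates are given. Transcript lengths, GC content and shared sequence words of 50 bases were taken from GENCODE M21, and names and microRNA sequences from RefSeq (GRCm38.p6).

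Counts were rounded, filtered with filterByExpr (minimum count 10), which left 18335 of 33142 genes with any count, and scaled by TMM. Groups were taken from the labels. All 16 libraries entered one edgeR quasi-likelihood fit, with 6 comparisons and Benjamini-Hochberg adjusted p-values over all genes tested (threshold 0.05). R 4.3.3, edgeR 4.0.16, limma 3.58.1 and DESeq2 1.42.0 were used. The test was checked on 1 simulated data set for HFD against LFD, with 18017 genes tested. In it 100 genes were changed 2-fold and another 100 were changed 4-fold. The test recovered 90 of the first and 100 of the second, with 10 false calls in all. Every simulated gene had the same dispersion (0.038), so genes of wider spread, such as H19, are not covered. Replicates were separate samples in the labels, and no pair of a group agreed within sampling noise. The p-values cover the spread between these samples. At low counts precision is limited by counting error. Alternatives were DESeq2, RLE scaling, other filters, only 2 groups, the replicate block, GC and length correction, a stricter threshold, and each library left out.

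The genes and lists were chosen with earlier results of these data known. In each list and comparison the 3 genes with the smallest adjusted p under 0.05 were to be named, with Khk, the 8 genes, and the 5 genes most like each of H19 and Gpc1, of which 1 is not reported here. Other list genes were named after their values were seen, as were Ankmy1, Airn, Mir483 and Mir149.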

Additional observations from a re-analysis of the deposited data

Results flagged for a closer look

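Of 35 groups of 4 libraries examined, 3 held a library whose gap to the nearest other, divided by the range of the group, was above the 95% critical value of Dixon's test for 4 samples, and chance gives about 1 in 20. H19 in LFD replicate 3 was 0.448 CPM, with 0.179 CPM in the nearest library (gap over range 0.834). Dlk1 in LFD replicate 3 was 0.0597 CPM, from 2 counts, and 0 in the other LFD libraries. Dlk1 in HFD + Inhib replicate 2 was 0 CPM, with 1 count in each of the other libraries of the group. HFD replicate 1, which held the most H19, was within the critical value.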

How the results depend on the processing

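For single genes with a test, 65 values were recomputed under up to 16 alternatives each, 1039 in all. Of these, 968 kept their direction and their side of the threshold, 58 kept the direction and lost the threshold, 10 crossed it, and 3 reversed. The 3 were Gpc3 for HFD against LFD, at -0.204 without LFD replicate 1, -0.0349 without LFD replicate 2 and -0.0378 without HFD replicate 4, and leaving out 1 library gave up to 0.493. For H19 and Gpc1, which have no test, 124 values under alternatives moved by less than the spread between libraries. H19 gave no value under the filter of 10 counts in every library, which it did not pass. The log2 fold change of H19 for HFD against LFD ranged from 5.18 to 6.65 over 15 alternatives, and that of Gpc1 from 2.40 to 2.87 over 16. No scaling moved the median of all genes by over 0.1. Numbers of genes called at an adjusted p under 0.01 were 1287 for HFD against LFD (3370 at 0.05), 689 for HFD + siRNA against HFD (2154), 1733 for HFD + Inhib against HFD (3339), 3711 for HFD + Inhib against HFD + siRNA (6204), 566 for HFD + siRNA against LFD (1582) and 4123 for HFD + Inhib against LFD (6767). With only the 2 groups compared, HFD + siRNA against LFD gave 798. Leaving out 1 library gave between 2010 and 3693 for HFD against LFD, 1101 and 1993 for HFD + siRNA against HFD, 2520 and 3027 for HFD + Inhib against HFD, 4980 and 6245 between the treatments, 983 and 1460 for HFD + siRNA against LFD, and 5464 and 6789 for HFD + Inhib against LFD. Deviations of same-numbered libraries correlated between -0.132 and 0.336 over 24 pairs, above 0.1 in 6 of them, and 9 of 16 libraries correlated best with their own number. The labels tie no replicate number to a litter or day, so the numbers were not taken to pair the samples. With the replicate block the numbers were 3299, 2080, 3341, 6197, 1469 and 6683 in the order given above, and Afp for HFD + Inhib against HFD passed the threshold (edgeR adjusted p = 0.0454). Counting error bears most on genes with few counts, such as Igf2 (10 to 58 a library), Gpc3 (3 to 42) and Dlk1 (0 to 2). Depth was not varied, and the cause of the differences between alternatives was not tested.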

Other observations

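Compared with LFD, the inhibitor group on HFD differed in 36.9% of all genes tested, with 18.8% higher and 18.2% lower, and the gene lists were read against those shares. Of 13 other proteoglycan genes tested (with Notum, which is among those called), 8 were called and all 8 were lower. Leaving out 1 library gave 7 to 8, and GC and length correction gave 5. Of 28 regulators of fetal and imprinted genes, 11 were called, all lower, and over the alternatives 8 to 12 were lower and 0 to 1 higher. Among them were Zhx2, at a log2 fold change of -0.51 (edgeR adjusted p = 7.3e-05, and -0.34 after GC and length correction), and Hnf4a. Of 8 hepatocyte markers, which also include Hnf4a, 7 were lower and 0 higher. Their sum was 77200 ± 8872 CPM in LFD and 41180 ± 1619 CPM in HFD + Inhib. The part of hepatocytes in the calls of these lists was not tested. Of 38 other imprinted genes, 10 were higher and 9 lower (14 to 18 called when 1 library was left out). H19 and Gpc1 themselves had libraries in HFD + Inhib that overlapped those in LFD.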
